A study of Danio rerio with 16 samples.

Results

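Zebrafish embryos labelled Gata5/6 morphants, called double morphants here, were set against WT embryos of the 6-somites stage, an early segmentation stage at which heart progenitors still lie in a field on each side of the embryo. The comparison rests on 4 of the 16 libraries of the series, 2 from double morphants and 2 from WT, taken by their stage and genotype labels. Each library was polyA RNA from a pool of 40 whole embryos, sequenced as single reads of 36 bases. Gata5 morphants and Gata6 morphants at 6-somites, with 2 libraries each, entered the same fit, and the 8 libraries of the same 4 groups at bud, the end of gastrulation, are used where a second stage is compared. Morphants are made by injecting morpholinos, synthetic oligomers that keep a chosen mRNA from being translated or spliced, and the amount of that mRNA need not fall. The labels do not give the morpholinos, their doses, the clutches or the strain, and do not say whether WT embryos were injected. Nothing in them says that the duplicate pools came from separate clutches, so the p-values measure the spread between these pools, which may be technical.

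Gata5 and Gata6 are related zinc-finger transcription factors that act in cardiac mesoderm, in endoderm and in the yolk syncytial layer, the extraembryonic tissue that takes up yolk and exports its lipid to the embryo as lipoproteins. In zebrafish the pair is known to act redundantly, and embryos that lose both fail to form heart muscle. Tmem88a, named in the title of the study, is a membrane protein that restrains canonical Wnt signalling.

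The 4 libraries held 27.4 to 30.8 M reads, and 14167 of the 26496 gene identifiers listed at 6-somites had at least 1 RPKM (read number divided by gene length and by library size) in 2 or more of the 8 libraries and were tested. Markers of the tissues of a whole embryo were present, with 21 of 23 marker identifiers at 1 RPKM or more in all 4 libraries. Of the other 2, mxtx2, a homeobox gene of the early yolk syncytial layer, was at most 0.132 RPKM, and gata1a was below 1 RPKM in double morphants. gata4, gata6, sox17 and sox32 were not analysed here.

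Libraries of the same group differed in the transcripts of a pair of gene families that were chosen after their values were seen. The 7 vitellogenins that were tested, yolk precursor proteins made in the liver of adult females, summed to 11.1 and 15.2 RPKM in WT and to 194 and 81.9 RPKM in double morphants, with 50.8 and 18.5 RPKM in Gata5 morphants and 75.5 and 60.0 RPKM in Gata6 morphants. At bud the same sum was at most 0.287 RPKM in the first library of every group and 181 to 1169 RPKM in the second. Late fast muscle genes summed to 44.7 and 19.2 RPKM in double morphants and to 12.2 and 9.66 RPKM in WT. The first double morphant library thus held more of both sets than the second, with a median ratio of 2.37 over the vitellogenins and 2.78 over the muscle genes. The same median ratio was 1.02 for the 18 yolk syncytial genes called higher below, with single genes from 0.755 to 1.39. It was 0.974 for the 11 heart field genes called lower, with single genes from 0.476 to 1.14. Any tie of the vitellogenin and muscle transcripts to other plasma protein genes was not tested. The values of the first bud libraries, which held next to no vitellogenin, are given beside those genes.

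Double morphants differed from WT in 2897 of the 14167 genes tested (20.4%), of which 1289 (9.1%) were higher and 1608 (11.4%) lower. With median-of-ratios scaling, 1465 were higher and 1377 lower, so the balance of directions depends on the scaling. These and all calls below come from limma on log2(RPKM + 1) at an adjusted p under 0.05, and changes are differences on that scale with their standard error (SE). The changes were mostly small: the median size was 0.476 for the higher genes and 0.466 for the lower genes, 153 and 107 genes changed by more than 1, and the median over all genes tested was -0.02. Of all genes tested, 26.6% had both double morphant libraries above both WT libraries and 33.7% had both below, and every called gene was among them. The count of called genes fell to 1187 without the first WT library, to 1861 without the second and to 1143 without the first double morphant library. Genes are named by a rule on the size of the change and on p. Members of a list named beyond that rule were chosen after their values were seen and carry no statistic of their own. The lists were chosen with earlier results of these data known, so their counts and shares are descriptive. Each such count is to be read beside the 9.1% higher and 11.4% lower of all genes tested. List counts with a library left out are to be read beside the fall over all genes given above.

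**Figure D1:**
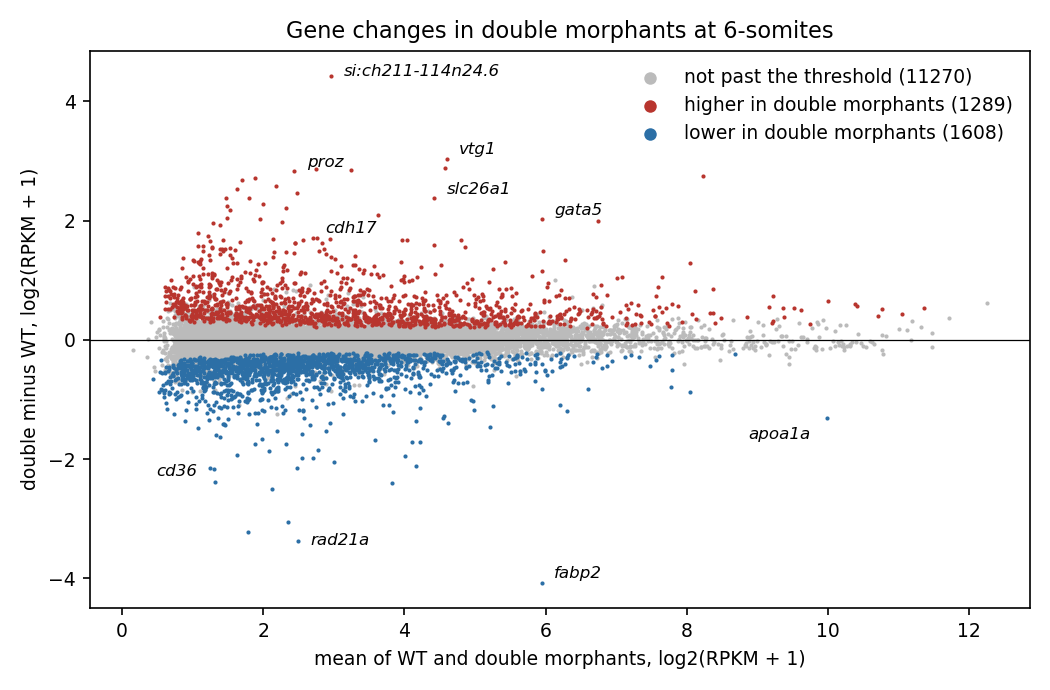
Each point is 1 of the 14167 genes tested, with the mean level in WT and double morphants at 6-somites on the x axis and the double minus WT difference on the y axis, both in log2(RPKM + 1). The 1289 genes called higher are red, the 1608 called lower are blue, and the lowest point is fabp2 at -4.07.

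Heart field and contractile genes were more often lower than higher in double morphants, while gata5 mRNA was higher. gata5 stood at 27 and 32.3 RPKM in WT and at 130.1 and 117 RPKM in double morphants, in the order of the replicate numbers, as in all pairs below. Both double morphant libraries were about 4 times the WT level, and the change of 2.02 ± 0.10 (SE, adjusted p = 7.21e-05) passed the test. Gata5 morphants held 97 and 91 RPKM and Gata6 morphants 46 and 44.2 RPKM, so the double morphants were the highest of the 4 groups. A higher level of the targeted mRNA does not measure how much Gata5 protein was made.

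Of 25 heart field regulators listed, 21 were tested, 11 were called lower and 2 higher, and their median change was -0.31 against -0.02 over all genes tested. The shares of all genes tested were 11.4% lower and 9.1% higher. tbx20, a T-box factor required for the heart tube, stood at 2.03 and 2.43 RPKM in WT and 0.527 and 0.63 RPKM in double morphants. nkx2.5, the homeobox gene of cardiac progenitors, stood at 1.27 and 1.1 RPKM in WT and 0.105 and 0.22 RPKM in double morphants. Both were several-fold lower with no overlap between groups, and their changes of -1.03 ± 0.10 (adjusted p = 0.000718) and -0.91 ± 0.12 (adjusted p = 0.00274) understate the ratio because the levels lie near the added 1 RPKM. In these bulk pools fewer progenitor cells and less RNA per cell cannot be told apart.

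hand2 and tbx3, which are also active outside the heart field, were lower by smaller amounts. hand2, a bHLH factor of heart and pharyngeal arches, stood at 21.6 and 21 RPKM in WT and 14.4 and 13.5 RPKM in double morphants, a change of -0.58 ± 0.08 (adjusted p = 0.00354). tbx3 stood at 17.1 and 15.8 RPKM in WT and 10.1 and 10.1 RPKM in double morphants, a change of -0.65 ± 0.09 (adjusted p = 0.00291). The groups did not overlap for either gene, and replicates lay close together. isl1, both tbx2 copies, mef2d and foxh1, the transcription factor of Nodal signalling, completed the lower members together with the tmem88 pair. aplnrb, an apelin receptor that guides cardiac progenitors, was the other higher member beside gata5, at 22.3 and 22.5 RPKM in WT and 29.1 and 28 RPKM in double morphants, and its call was lost without the first WT library and without the first double morphant library. nkx2.7 was not called, at 19.8 and 22.9 RPKM in WT and 19.8 and 16.8 RPKM in double morphants, where the groups met near 19.8 RPKM (change -0.21 ± 0.10, adjusted p = 0.192). The lower count of 11 was 7 without the first WT library and without either double morphant library.

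tmem88a stood at 3.6 and 3.27 RPKM in WT and 2.46 and 2.15 RPKM in double morphants, with 2.72 and 2.49 RPKM in Gata5 morphants and 4.27 and 3.7 RPKM in Gata6 morphants. The double morphants were the lowest group for tmem88a, and the change from WT of -0.42 ± 0.09 (adjusted p = 0.0195) passed the test. Their change from Gata5 morphants of -0.12 ± 0.09 did not pass (adjusted p = 0.378). That from Gata6 morphants of -0.59 ± 0.09 did (adjusted p = 0.00936). The call against WT was lost without the first WT library or the second double morphant library. tmem88a also lost its call in a fit of the 4 libraries compared and in a fit of all 16 libraries. Its paralogue tmem88b stood at 5.07 and 4.4 RPKM in WT and 2.8 and 2.88 RPKM in double morphants, a change of -0.58 ± 0.08 (adjusted p = 0.00383). At bud tmem88a was at 4.31 and 3.02 RPKM in WT and 0.745 and 1.36 RPKM in double morphants, so the groups stood further apart at the earlier stage, whereas tmem88b was at 2.12 and 2.1 RPKM in WT and 2.54 and 2.57 RPKM in double morphants. The change of the effect between stages was 0.76 ± 0.42 for tmem88a and -0.77 ± 0.20 for tmem88b, and neither passed the test (adjusted p = 0.65 and 0.233).

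Contractile genes are only beginning to be expressed at this stage, and 11 of 27 listed reached the level for testing. Of these 11 genes 7 were called lower and none higher, with 0 higher also at an unadjusted p under 0.05, and the median change was -0.34. The shares of all genes tested were 11.4% lower and 9.1% higher. atp2a2a, the calcium pump of heart and muscle, stood at 3.21 and 2.85 RPKM in WT and 1.79 and 1.67 RPKM in double morphants, a change of -0.56 ± 0.08 (adjusted p = 0.00433). unc45b, a chaperone of muscle myosin, stood at 31 and 30.7 RPKM in WT and 23.2 and 24.3 RPKM in double morphants, a change of -0.36 ± 0.06 (adjusted p = 0.00736). Both fell in both libraries, by unequal amounts. The other lower members were actc1a, tpm4a, ttn and both acta1 copies, genes that somitic muscle also expresses, so the list does not separate heart from somites. In the set of late fast muscle genes summed above, which is separate from this list, 6 of 7 tested were higher, beside 9.1% of all genes. They were ckma, ckmb, myl11, pvalb1, pvalb2 and tnni2, and the median change was 1.48 over the 7. That set includes sarcomere genes. The count of 7 lower genes in the contractile list was 3 without the first WT library and without the first double morphant library.

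**Figure D2:**
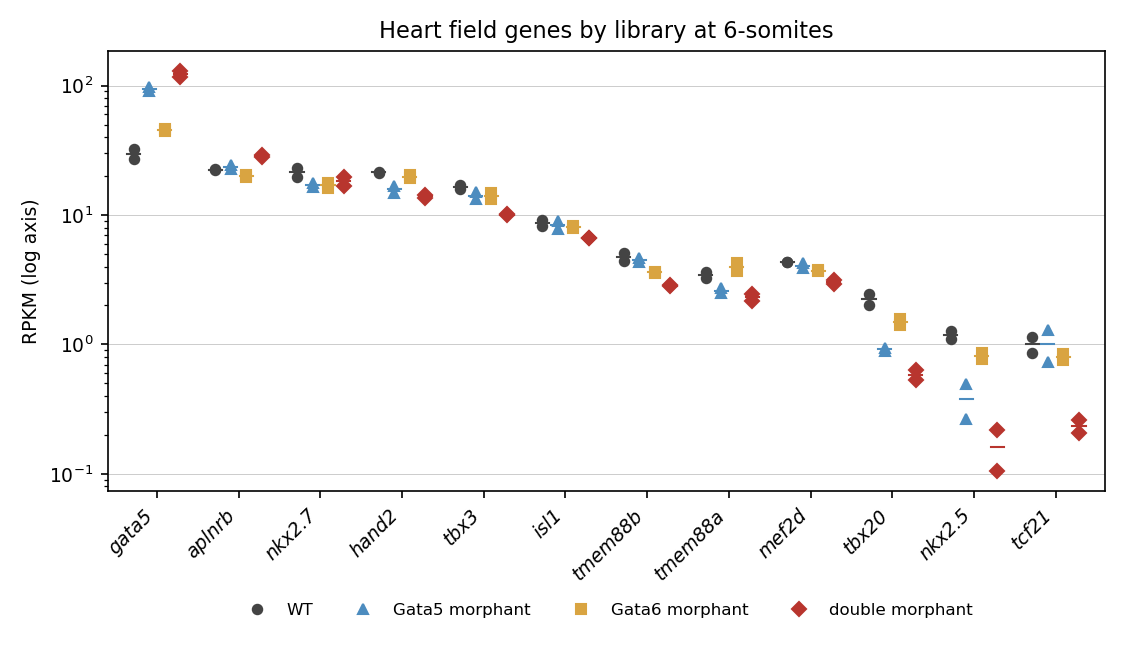
RPKM on a log axis for 12 heart genes at 6-somites, with 1 point per library, a bar at the mean of each group of 2, and a symbol for each of the 4 groups. Double morphants are lowest for tbx20, nkx2.5 and tcf21 and highest for gata5.

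Lists of neighbouring mesoderm had medians near that of all genes and single genes that changed in either direction. Called members made up 38.5% of the pharyngeal, 36.8% of the blood and endothelial and 46.2% of the kidney genes tested. Of all genes 20.4% were called. Among 13 genes of pharyngeal and cranial mesoderm 3 were lower and 2 higher, with a median change of 0.02. tcf21, a bHLH factor of head muscle and epicardium, stood at 1.15 and 0.855 RPKM in WT and 0.261 and 0.206 RPKM in double morphants, and nkx2.3, a homeobox gene of the pharynx, stood at 3.44 and 1.81 RPKM in WT and 0.872 and 0.916 RPKM in double morphants. Both were lower with no overlap (changes -0.70 ± 0.15 and -0.90 ± 0.19, adjusted p = 0.0162 and 0.0158). The tcf21 call was lost without the first WT library and without either double morphant library, and the nkx2.3 call without either double morphant library. foxc1 (ENSDARG00000091481), a forkhead factor of cranial and somitic mesoderm, was higher at 39 and 34.9 RPKM in double morphants against 29.3 and 29.1 RPKM in WT, a call lost without either WT library or the first double morphant library. tbx1, a T-box factor of the same region, was not called (4.68 and 3.88 RPKM in WT, 4.52 and 4.15 RPKM in double morphants).

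Of 19 blood and endothelial genes tested, 4 were lower and 3 higher, with a median change of -0.09. kdr (ENSDARG00000017321), a receptor for VEGF on endothelial cells and their precursors, stood at 5.82 and 7.69 RPKM in WT, 11.8 and 9.09 RPKM in Gata5 morphants, 5.32 and 5.36 RPKM in Gata6 morphants and 1.41 and 1.98 RPKM in double morphants. It was lowest in the double morphants, which differed from WT by -1.52 ± 0.16 (adjusted p = 0.00115), from Gata5 morphants by -2.09 ± 0.16 (adjusted p = 0.00042) and from Gata6 morphants by -1.24 ± 0.16 (adjusted p = 0.00471). At bud kdr was at 3.38 and 2.85 RPKM in WT and 0.34 and 0.328 RPKM in double morphants, again apart. etsrp, the ETS factor that starts the endothelial programme, went the other way, at 21.7 and 22.9 RPKM in WT and 29 and 27.2 RPKM in double morphants, chosen after its values were seen. plvapb, an endothelial membrane protein, was also higher, at 0.969 and 1.12 RPKM in WT and 2.68 and 2.71 RPKM in double morphants (change 0.85 ± 0.09, adjusted p = 0.00116). Among genes of red blood cells, hbae3, an embryonic alpha globin, stood at 3.96 and 3.43 RPKM in WT and 1.69 and 1.35 RPKM in double morphants, and gata1a, the erythroid GATA factor, was at 1.54 and 1.16 RPKM in WT and 0.396 and 0.52 RPKM in double morphants (changes -0.90 ± 0.12 and -0.69 ± 0.12, adjusted p = 0.00268 and 0.00747). At bud the groups overlapped for hbae3, at 3.31 and 8.14 RPKM in WT and 1.11 and 6.7 RPKM in double morphants. The second library was the higher in both groups, and gata1a in WT was at 0.00661 and 0.0375 RPKM. urod, a haem synthesis enzyme, was not called at 6-somites, at 9.15 and 9.37 RPKM in WT and 7.61 and 7.62 RPKM in double morphants. tal1 and lmo2, which mark the common blood and endothelial precursors, were not called, at 17.9 and 17.2 RPKM in WT and 17.4 and 17.9 RPKM in double morphants for tal1. The higher count of 3 was 1 without the first WT library and without the first double morphant library.

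The kidney list also held called genes in both directions. cdh17, a cadherin of the pronephric duct, stood at 2.81 and 2.38 RPKM in WT, 2.08 and 2.13 RPKM in Gata5 morphants, 8.15 and 7.9 RPKM in Gata6 morphants and 10.2 and 11.4 RPKM in double morphants. It was about 4 times higher in double morphants than in WT (change 1.71 ± 0.09, adjusted p = 7.78e-05). At bud it already stood at 12.1 and 6.64 RPKM in double morphants against 0.598 and 0.818 RPKM in WT. wt1, the podocyte factor, was lower, at 3.28 and 3.71 RPKM in WT and 1.75 and 1.96 RPKM in double morphants (change -0.66 ± 0.09, adjusted p = 0.00318). Over the 13 genes tested 4 were lower and 2 higher, and the median change was 0.07. The call of slc4a4, a bicarbonate transporter at 3.28 and 4.13 RPKM in WT and 2.3 and 2.49 RPKM in double morphants, was lost without the second WT library or either double morphant library. The lower count was 2 without the second WT library, and the higher count was 1 in every other omission.

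Genes of the yolk syncytial layer had the highest share of called members of the 24 lists, at 71.4% beside 20.4% of all genes. This rank is descriptive, since the lists were chosen with earlier results of these data known. Of 32 listed, 28 were tested, 18 were called higher and 2 lower, and the median change was 0.60. proz, a plasma protein that acts with coagulation factors, stood at 1.14 and 0.925 RPKM in WT, 2.42 and 1.99 RPKM in Gata5 morphants, 5.9 and 5.94 RPKM in Gata6 morphants and 14.2 and 12.7 RPKM in double morphants. The groups of proz did not overlap at any step, and the double morphants differed from WT by 2.83 ± 0.10 (adjusted p = 1.45e-05). apoc2, the apolipoprotein that activates lipoprotein lipase, stood at 41.8 and 39.3 RPKM in WT and 91.6 and 91.3 RPKM in double morphants, a change of 1.15 ± 0.06 (adjusted p = 8.25e-05). apoa1a, the main protein of high-density lipoprotein and among the most abundant mRNAs of the list, went down, from 1653 and 1553 RPKM in WT to 630.0 and 656 RPKM in double morphants (change -1.32 ± 0.08, adjusted p = 0.000122). It stood at 1440.1 and 1365 RPKM in Gata5 morphants and 1544 and 1654 RPKM in Gata6 morphants, both close to WT and apart from the double morphants.

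Secreted plasma proteins made up most of the higher members. The fibrinogen chains fga, fgb and fgg summed to 3.73 and 3.95 RPKM in WT and to 29.0 and 23.8 RPKM in double morphants. fga alone stood at 0.818 and 0.891 RPKM in WT and 11.3 and 9.09 RPKM in double morphants (change 2.59 ± 0.14, adjusted p = 9.7e-05), and ahsg1, a fetuin, at 0.456 and 0.423 RPKM in WT and 9.94 and 7.17 RPKM in double morphants (change 2.71 ± 0.17, adjusted p = 0.000139). These are also liver proteins, and the vitellogenin sums given above were likewise higher in double morphants than in WT. In the first bud libraries, where vitellogenins summed to 0.204 RPKM in WT and 0.0908 RPKM in double morphants, proz was at 0.752 RPKM in WT and 10.6 RPKM in double morphants. In the same libraries fga was at 0.0716 RPKM in WT and 0.834 RPKM in double morphants, ahsg1 at 0.712 RPKM in WT and 5.37 RPKM in double morphants and apoc2 at 35.6 RPKM in WT and 79.3 RPKM in double morphants. Each was higher in the double morphant library, with 1 library a group and no test. In the second bud libraries proz was at 0.488 RPKM in WT and 3.66 RPKM in double morphants and apoc2 at 36.6 RPKM in WT and 54.5 RPKM in double morphants. There ahsg1 was at 9.09 RPKM in WT and 12.1 RPKM in double morphants and fga at 9.09 RPKM in WT and 8.02 RPKM in double morphants. Over both bud libraries the groups thus overlapped for fga and ahsg1 and did not for proz and apoc2. Transporters and lipid export genes were among the higher members too, chosen after their values were seen: slc26a1, a sulphate transporter, at 6.82 and 10.04 RPKM in WT and 47.8 and 47.1 RPKM in double morphants, and mttp, which loads lipid onto apolipoprotein B, at 17.3 and 24.6 RPKM in WT and 41 and 44.9 RPKM in double morphants. The abundant apoeb (696 and 750.3 RPKM in WT, 721 and 709.5 RPKM in double morphants) and apobb.1 (109 and 143 RPKM in WT and 83.5 and 136 RPKM in double morphants) were not called.

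Fatty acid uptake and esterification genes were more often lower than higher. Of 35 listed, 30 were tested, 11 were lower and 4 higher, and the median change was -0.22. The shares of all genes tested were 11.4% lower and 9.1% higher. fabp2, a fatty acid binding protein of absorptive epithelium, stood at 253 and 248 RPKM in WT, 240.0 and 210.0 RPKM in Gata5 morphants, 127 and 127 RPKM in Gata6 morphants and 12 and 16.2 RPKM in double morphants. It was the lowest change of all genes tested, at -4.07 ± 0.13 (adjusted p = 1.45e-05), and at bud it stood at 141 and 55.2 RPKM in WT and 10.9 and 4.12 RPKM in double morphants. cd36, a fatty acid receptor, stood at 3.35 and 4.7 RPKM in WT, 4.7 and 3.33 RPKM in Gata5 morphants, 0.847 and 0.859 RPKM in Gata6 morphants and 0.0924 and 0.155 RPKM in double morphants (change from WT -2.15 ± 0.16, adjusted p = 0.000322). For cd36 the Gata5 morphants overlapped WT, while Gata6 morphants lay between WT and double morphants.

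acsl5, which activates long-chain fatty acids, stood at 11.3 and 11.9 RPKM in WT and 3.19 and 3.53 RPKM in double morphants, and soat1, which esterifies cholesterol, at 3.25 and 3.69 RPKM in WT and 0.737 and 0.818 RPKM in double morphants. Both were 3 to 5 times lower in double morphants (changes -1.53 ± 0.11 and -1.33 ± 0.09, adjusted p = 0.000278 and 0.0002). acsl5 stood at 16.7 and 12.9 RPKM in Gata5 morphants and 15.3 and 15.2 RPKM in Gata6 morphants, above both WT libraries. For acsl5 the double morphants alone were thus low. soat1 was below WT in both single morphants, at 2.12 and 2.01 RPKM in Gata5 morphants and 2.11 and 1.87 RPKM in Gata6 morphants. apoa4b.2, an apolipoprotein of lipid-absorbing tissue that is not counted in this list, fell from 11.3 and 9.89 to 1.91 and 1.97 RPKM (change -1.98 ± 0.08, adjusted p = 3.86e-05). It stood at 12.5 and 12.2 RPKM in Gata5 morphants and 4.42 and 4.94 RPKM in Gata6 morphants. The count of lower members was 6 without the first WT library and without the first double morphant library, and that of higher members was 0 to 2 with any 1 of the 4 libraries left out.

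**Figure D3:**
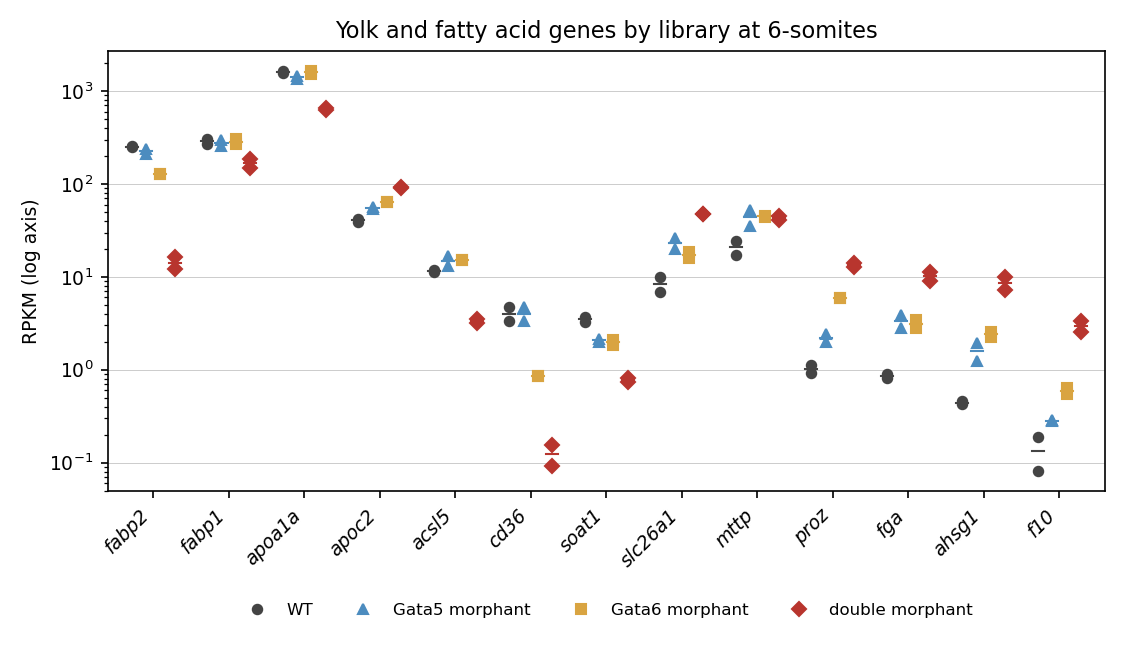
RPKM on a log axis for 13 yolk syncytial and fatty acid genes at 6-somites, with 1 point per library, a bar at the mean of each group of 2, and a symbol for each of the 4 groups. fabp2, cd36, acsl5, soat1 and apoa1a are lowest in double morphants, and proz, fga, ahsg1 and f10 are highest there.

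Endoderm genes did not fall as a list. Of 15 tested, 5 were higher and 2 lower, with a median change of 0.17. Called members made up 46.7% of those tested, beside 20.4% of all genes. foxa3, a forkhead factor of endoderm and hatching gland, stood at 12.4 and 13 RPKM in WT and 18.1 and 17 RPKM in double morphants, and 1 shh copy (ENSDARG00000038867) at 4.85 and 5.89 RPKM in WT and 9.05 and 7.89 RPKM in double morphants (changes 0.44 ± 0.07 and 0.57 ± 0.10, adjusted p = 0.00651 and 0.00787). foxa2, the pioneer factor of the same tissue, was not called, at 15.9 and 15.8 RPKM in WT and 16.5 and 17.2 RPKM in double morphants. The other shh copy (ENSDARG00000068567) was not called either, at 16.5 and 13.6 RPKM in WT and 16.2 and 14.5 RPKM in double morphants. The raised shh copy is also the 1 higher gene of the notochord list below. gata5 is counted among the 5, and the count was 3 without the first double morphant library.

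Signalling lists had shares of called members from 5.56% in the FGF list to 37.5% of 8 genes in the Nodal list, beside 20.4% of all genes. In the BMP list 4 of 22 genes were lower and none higher, with 1 higher at an unadjusted p under 0.05, and the median change was -0.16. id2, a BMP target, stood at 12.3 and 12.2 RPKM in WT and 9.0 and 8.22 RPKM in double morphants, and smad6 (ENSDARG00000031763), an inhibitor of the BMP pathway, at 17.5 and 16 RPKM in WT and 11.7 and 11.5 RPKM in double morphants (changes -0.47 ± 0.07 and -0.50 ± 0.08, adjusted p = 0.00483 and 0.00541). For both the double morphants were lower without overlap, and both genes were below WT in the single morphants too. id2 stood at 7.86 and 7.84 RPKM in Gata5 morphants and 9.91 and 9.3 RPKM in Gata6 morphants. That smad6 copy stood at 12.7 and 13.5 RPKM in Gata5 morphants and 11.9 and 13.0 RPKM in Gata6 morphants. For neither gene did the double morphants pass the test against Gata5 or Gata6 morphants. The other smad6 copy (ENSDARG00000053209) was not called against WT (adjusted p = 0.0705). The calls of id3 and tp63 in the same list were lost without the second WT library or the first double morphant library.

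Of 17 canonical Wnt targets 2 were higher and 1 lower, with a median change of 0.04. The higher members were both wnt8a identifiers, whose values ran in parallel and may share reads, at 7.14 and 7.78 RPKM in WT and 11.1 and 9.97 RPKM in double morphants for ENSDARG00000078507 (change 0.45 ± 0.08, adjusted p = 0.00803). That call was lost without the first WT library. Feedback targets were not called: dkk1b stood at 4.49 and 5.35 RPKM in WT and 6.1 and 6.06 RPKM in double morphants, sp5 at 8.22 and 8.55 RPKM in WT and 9.26 and 10.1 RPKM in double morphants, and lef1 at 7.61 and 7.37 RPKM in WT and 7.47 and 6.91 RPKM in double morphants. For dkk1b and sp5 both double morphant libraries lay above both WT libraries by less than the test requires (sp5 change 0.18 ± 0.07, adjusted p = 0.123).

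In the Nodal list, of 8 genes tested, tdgf1, the Nodal co-receptor, was lower at 2.15 and 2.36 RPKM against 4.2 and 4.62 RPKM in WT (change -0.73 ± 0.08, adjusted p = 0.00145), foxh1 was lower and dact2 higher. The foxh1 call was lost without the second WT library or either double morphant library, and the dact2 call without the first WT library or either double morphant library. Of 18 FGF genes 1 was lower, spred2, whose call was lost without the first WT or the first double morphant library. Of 27 retinoic acid genes 4 were lower and 2 higher, among them rarg (ENSDARG00000054003), a retinoic acid receptor at 3.24 and 2.6 RPKM in WT and 0.336 and 1.43 RPKM in double morphants. rarg differed 4-fold between the double morphant libraries and lost its call without either WT library. The lower count of this list was 1 without the first WT library and 2 without the second or without the first double morphant library, and the higher count was 0 without the first WT or the first double morphant library.

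Of 33 hox genes 7 were lower and none higher, with 0 higher also at an unadjusted p under 0.05, and the median change was -0.18. The share called was 21.2%, beside 20.4% of all genes called and 11.4% called lower. hoxb6, which patterns the trunk, stood at 9.87 and 10.5 RPKM in WT and 6.18 and 6.31 RPKM in double morphants, and hoxd12, a posterior member, at 3.92 and 2.94 RPKM in WT and 1.6 and 1.73 RPKM in double morphants (changes -0.63 ± 0.08 and -0.72 ± 0.13, adjusted p = 0.00271 and 0.00872). hoxd12 lost its call without the first double morphant library, and without that library the count of lower hox genes was 3. Gata5 morphants also had low levels of several of them, with hoxd3 at 6.84 and 5.28 RPKM in WT, 2.99 and 3.2 RPKM in Gata5 morphants, 5.5 and 5.88 RPKM in Gata6 morphants and 3.41 and 3.53 RPKM in double morphants.

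Lists of axial and ectodermal tissues and of germ cells had medians between -0.08 and 0.07. Shares of called members ran from 20% in the neural crest and hatching gland lists to 32.3% in the somite list, beside 20.4% of all genes. Among 47 neural plate and brain genes 9 were higher and 3 lower, with a median change of 0.06, and the higher count was 0 to 5 and the lower count 0 to 4 with any 1 of the 4 libraries left out. rx3, a homeobox gene of the eye field, stood at 16.8 and 18 RPKM in WT and 34.5 and 25.9 RPKM in double morphants (change 0.75 ± 0.13, adjusted p = 0.00886), a call lost without the first WT library. The 3 lower members were rx1, egr2 and pax2. rx1 stood at 3.65 and 2.59 RPKM in WT and 1.45 and 1.82 RPKM in double morphants (change -0.64 ± 0.13, adjusted p = 0.0156). Its call was lost without the first WT library or the first double morphant library. Among 31 somite and presomitic genes 6 were lower and 4 higher, with a median change of 0.01, and without the first WT or the first double morphant library 1 was lower and none higher. mespaa, a segmentation bHLH factor whose mouse relatives also mark early cardiac mesoderm, stood at 5.35 and 3.81 RPKM in WT and 1.6 and 1.97 RPKM in double morphants, a change of -0.99 ± 0.14 (adjusted p = 0.00397). Of 20 neural crest and placode genes 4 were lower and none higher, with 0 higher at an unadjusted p under 0.05 too, by at most 0.44 on the log2 scale, and each of the 4 calls was lost without the first WT library and without the first double morphant library. Among 13 notochord genes 2 were lower and 1 higher, with 5 lower without the second WT library and 0 without the first WT or the first double morphant library, among 7 germ cell genes 1 was higher and 1 lower, and of 5 hatching gland genes foxa3 was higher.

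Of 27 genes of the enveloping layer and periderm, the outer skin of the embryo, 4 were higher and 4 lower. The lower count was 0 without the first WT or the first double morphant library and 1 without the second WT library, and the higher count was 2 without the first WT library. pkp3a, a desmosomal plakophilin, stood at 11 and 11.5 RPKM in WT, 33 and 29.4 RPKM in Gata5 morphants, 11.6 and 10.8 RPKM in Gata6 morphants and 23.9 and 22.9 RPKM in double morphants. It was thus high in both groups labelled with Gata5 and at the WT level in Gata6 morphants, and the double morphants differed from WT by 1.00 ± 0.08 (adjusted p = 0.000359). The other changes called in the list were between -0.31 and 0.73.

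**Figure D4:**
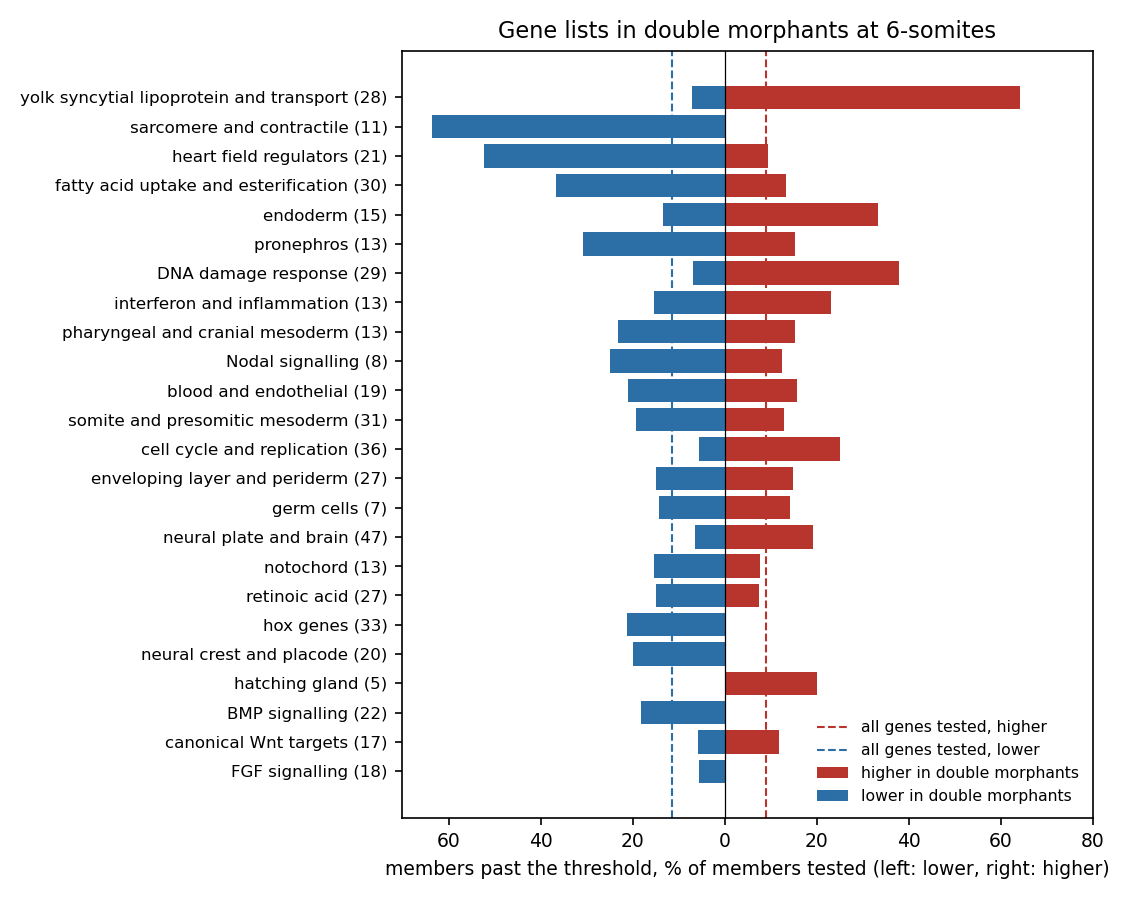
Share of the tested members of 24 gene lists called higher (red, right) or lower (blue, left) in double morphants against WT at 6-somites, with the number tested after each name. Dashed lines mark 9.1% higher and 11.4% lower over all 14167 genes tested, and the longest bars are yolk syncytial genes higher and contractile and heart field genes lower. The lists were chosen with earlier results of these data known.

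The DNA damage response halts division or starts apoptosis, and some morpholinos are known to raise it. Of 29 genes of this response and of apoptosis that were tested, 11 were higher in double morphants than in WT and 2 lower, with a median change of 0.22. The share called was 44.8%, beside 20.4% of all genes. phlda3, a damage-induced protein that restrains Akt, stood at 2.38 and 2.29 RPKM in WT, 10.8 and 9.79 RPKM in Gata5 morphants, 10.1 and 8.09 RPKM in Gata6 morphants and 5.28 and 5.27 RPKM in double morphants. The double morphants lay between WT and both single morphants for phlda3, with changes of 0.91 ± 0.10 from WT (adjusted p = 0.00143), -0.85 ± 0.10 from Gata5 morphants (adjusted p = 0.00262) and -0.68 ± 0.10 from Gata6 morphants (adjusted p = 0.00766). cdkn1a, the cell cycle inhibitor p21, stood at 1.18 and 1.4 RPKM in WT, 4.89 and 4.92 RPKM in Gata5 morphants, 4.45 and 4.16 RPKM in Gata6 morphants and 2.7 and 3.62 RPKM in double morphants, again with the double morphants between (change from WT 0.86 ± 0.11, adjusted p = 0.00297).

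In each comparison taken by itself, 16 of the 29 damage response genes were lower in double than in Gata5 morphants. Of all genes tested 13.4% were lower in that comparison. Against Gata6 morphants 6 of the 29 were lower and 2 higher, beside 5.36% lower and 6.06% higher of all genes. All 3 comparisons use the same double morphant libraries. ccng1, a cyclin induced by damage, stood at 76.6 and 85.1 RPKM in WT and 124 and 145 RPKM in double morphants (change 0.73 ± 0.09, adjusted p = 0.00251). At bud the double morphant libraries disagreed: phlda3 was at 11.5 and 2.58 RPKM, against 2.25 and 2.53 RPKM in WT. The count of 11 was 7 without the first WT library and without the second double morphant library, and the count of 2 lower was 0 without the first WT or the first double morphant library. isg15, an interferon-induced ubiquitin-like protein counted among the 11 too, was higher at 1.25 and 2.15 RPKM against 0.369 and 0.342 RPKM in WT (change 0.97 ± 0.15, adjusted p = 0.00541). It stood at 3.02 and 3.07 RPKM in Gata5 morphants, above the double morphants (double minus Gata5 -0.60 ± 0.15, adjusted p = 0.028). Gata6 morphants held 0.643 and 0.58 RPKM. Called members made up 38.5% of the interferon and inflammation genes tested, beside 20.4% of all genes. Of the 13 interferon and inflammation genes 3 were higher and 2 lower, with 2 higher and 0 or 1 lower in each omission of a library.

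**Figure D5:**
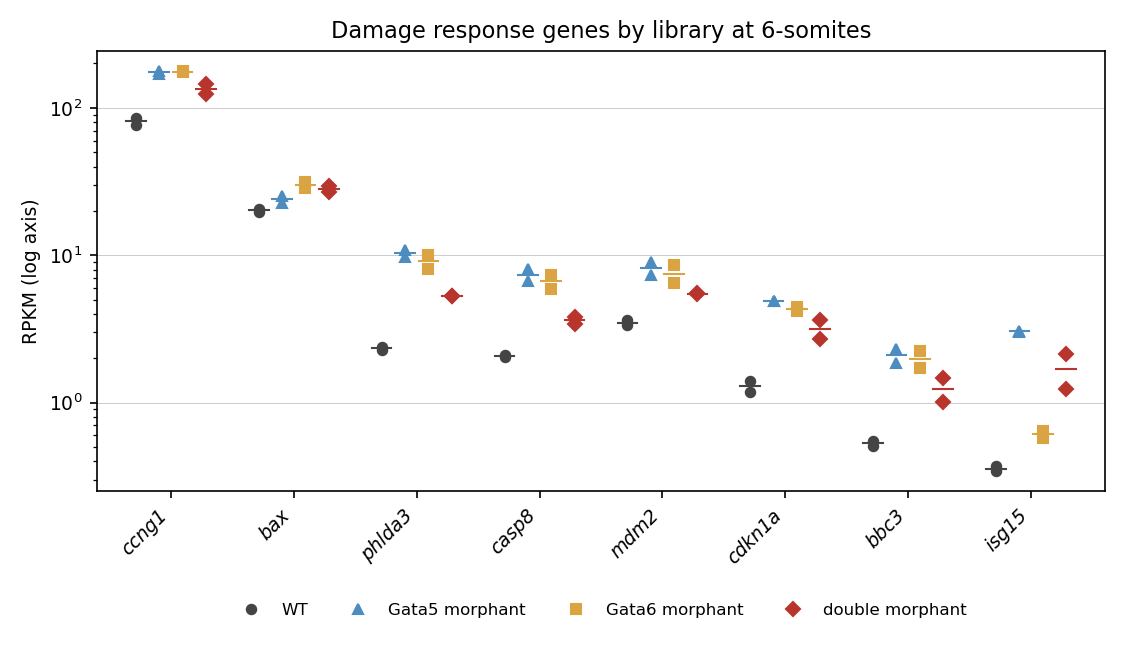
RPKM on a log axis for 8 genes of the damage response at 6-somites, with 1 point per library, a bar at the mean of each group of 2, and a symbol for each of the 4 groups. For phlda3, casp8, mdm2 and cdkn1a the double morphants lie above WT and below both single morphants.

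Of 36 cell cycle and replication genes 9 were higher and 2 lower, with a median change of 0.14. The share called was 30.6%, beside 20.4% of all genes. ccnb2, a mitotic cyclin, stood at 11.2 and 10.9 RPKM in WT, 17 and 18.2 RPKM in Gata5 morphants, 9.43 and 9.84 RPKM in Gata6 morphants and 18.3 and 17.7 RPKM in double morphants. Gata5 and double morphants stood above WT and Gata6 morphants for ccnb2, and the change from WT was 0.66 ± 0.07 (adjusted p = 0.000867). mad2l1, of the spindle checkpoint, stood at 66.8 and 65.8 RPKM in WT and 98.9 and 91.1 RPKM in double morphants, and mcm3, of the replicative helicase, at 14.8 and 16.1 RPKM in WT and 24.4 and 22.9 RPKM in double morphants (changes 0.51 ± 0.07 and 0.59 ± 0.08, adjusted p = 0.0027 and 0.00387). mki67, a proliferation marker, was among the 2 lower members, at 136 and 140.3 RPKM in WT and 99.3 and 116 RPKM in double morphants, and both calls were lost without the first WT library and without the first double morphant library.

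The 10 highest and 10 lowest changes by the naming rule held several kinds of gene. fabp2, cd36, apoa4b.2, dao and ppp1r3ab were among the lowest. dao (ENSDARG00000035602), D-amino acid oxidase, fell from 30.2 and 32.4 RPKM in WT to 4.19 and 6.15 RPKM in double morphants, and ppp1r3ab, a subunit that targets protein phosphatase 1 to glycogen, from 10.6 and 11 to 1.43 and 1.9 RPKM (changes -2.40 ± 0.14 and -2.15 ± 0.10, adjusted p = 0.000128 and 7.21e-05). Gata5 morphants held dao at the WT level and Gata6 morphants lay between, at 29.3 and 31.6 RPKM in Gata5 and 16.7 and 18.9 RPKM in Gata6 morphants. mafbb, a bZIP factor, fell from 13.3 and 10.5 to 1.95 and 3.28 RPKM, and si:ch211-235f1.3 from 6.27 and 5.31 to 0.84 and 1.19 RPKM (changes -1.85 ± 0.17 and -1.75 ± 0.14, adjusted p = 0.000706 and 0.000463). The latter was low in Gata5 morphants as well, at 1.8 and 1.16 RPKM, but not in Gata6 morphants, at 4.48 and 4.59 RPKM.

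zgc:56231 followed the Gata5 label at both stages. It stood at 0.218 and 0.353 RPKM in WT, 0.277 and 0.187 RPKM in Gata6 morphants, 14.7 and 13.5 RPKM in Gata5 morphants and 6.3 and 6.49 RPKM in double morphants (change from WT 2.53 ± 0.09, adjusted p = 1.45e-05). At bud it stood at 0.391 and 0.644 RPKM in WT, 0.445 and 0.264 RPKM in Gata6 morphants, 12.7 and 10.3 RPKM in Gata5 morphants and 4.84 and 6.68 RPKM in double morphants. All 8 libraries of these groups labelled with Gata5, at either stage, were above all 8 others, and the double morphants held less than Gata5 morphants at 6-somites (change -1.03 ± 0.09, adjusted p = 0.0007).

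vtg1, vtg2 and vtg4, pvalb1, a parvalbumin of fast muscle, and fabp10a, the liver fatty acid binding protein, were also among the 10 highest. vtg1 stood at 5.8 and 8.46 RPKM in WT and 100.3 and 41.9 RPKM in double morphants (change 3.04 ± 0.50, adjusted p = 0.00672), pvalb1 at 0.289 and 0.122 RPKM in WT and 12 and 3.54 RPKM in double morphants, and fabp10a at 1.23 and 1.21 RPKM in WT and 20.3 and 6.0 RPKM in double morphants. All of them were 2 to 4 times higher in the first double morphant library than in the second. At bud vtg1 was at 0.0173 and 597 RPKM in WT and pvalb1 at 0.512 and 29.7 RPKM, so libraries of 1 group lay far apart. The fabp10a call was lost without either WT library or the first double morphant library.

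The remaining extremes, si:ch211-114n24.6, rad21a, zgc:113293 and urahb, were nearly on in some pools and off in others. si:ch211-114n24.6 stood at 0.989 and 0.39 RPKM in WT and 30.8 and 38.9 RPKM in double morphants, the highest change of all genes tested at 4.42 ± 0.19 (adjusted p = 3.86e-05). At bud it was at 32.2 and 0.599 RPKM in WT and 39.3 and 0.651 RPKM in double morphants, high in the first and low in the second library of each. rad21a, a cohesin subunit, stood at 15.3 and 17.6 RPKM in WT and 0.126 and 1.53 RPKM in double morphants at 6-somites, and at 0.353 and 0.21 RPKM in WT and 18.7 and 0.114 RPKM in double morphants at bud, where the double morphant libraries disagreed. zgc:113293 stood at 9.35 and 9.63 RPKM in WT and 0.102 and 0.161 RPKM in double morphants (change -3.21 ± 0.11, adjusted p = 1.45e-05), and urahb, an enzyme of urate breakdown, at 12.8 and 14.3 RPKM in WT and 0.455 and 1.11 RPKM in double morphants. rrm2 (ENSDARG00000078069), a ribonucleotide reductase subunit counted among the cell cycle genes, behaved likewise, at 5.61 and 7.87 RPKM in WT, 0.185 and 0.0582 RPKM in Gata5 morphants and 18.2 and 16 RPKM in double morphants, and at 0.483 and 17.7 RPKM in double morphants at bud. At bud zgc:113293 was at 0.167 and 0.434 RPKM in WT and 2.7 and 0.163 RPKM in double morphants. Levels of these genes thus differed between libraries of 1 group at bud, and the part of the clutch in them was not tested.

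Against the single morphants at the same stage, double morphants differed from Gata5 morphants in 2989 of 14167 genes (21.1%) and from Gata6 morphants in 1618 (11.4%). Of the first, 1095 (7.73%) were higher and 1894 (13.4%) lower, a share of 36.6% higher that became 56.7% with median-of-ratios scaling. Of the second, 858 (6.06%) were higher and 760 (5.36%) lower. The count against Gata5 morphants was 997 and 935 without the first and the second Gata5 library and 1003 without the first double morphant library. The count against Gata6 morphants was 400 and 525 without the first and the second Gata6 library and 431 without the first double morphant library. These comparisons share the double morphant libraries with each other and with that against WT, so their values are given side by side.

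fabp2 had the lowest change against Gata5 morphants by the naming rule, at -3.91 ± 0.13 (adjusted p = 2.89e-05), and was lower than in Gata6 morphants by -3.09 ± 0.13 (adjusted p = 6.29e-05). Among heart field genes 5 of 21 were lower and 2 higher than in Gata5 morphants, with a median of -0.12, and 6 were lower and 2 higher than in Gata6 morphants, with a median of -0.07. tbx20 stood at 0.945 and 0.894 RPKM in Gata5 morphants and 1.41 and 1.57 RPKM in Gata6 morphants, so the double morphants were below both, with a change of -0.28 ± 0.10 from Gata5 morphants that did not pass (adjusted p = 0.0793) and of -0.66 ± 0.10 from Gata6 morphants (adjusted p = 0.00759). nkx2.5 stood at 0.268 and 0.491 RPKM in Gata5 morphants and 0.859 and 0.767 RPKM in Gata6 morphants, with changes of -0.24 ± 0.12 (adjusted p = 0.18) and -0.64 ± 0.12 (adjusted p = 0.0154). Yolk syncytial genes were higher in 10 of 28 and lower in 3 against Gata5 morphants, and higher in 12 and lower in 3 against Gata6 morphants. Over all genes tested 7.73% were higher and 13.4% lower against Gata5 morphants, and 6.06% higher and 5.36% lower against Gata6 morphants. The other extremes of these comparisons were si:ch211-114n24.6, zgc:113293 and rad21a in both, rrm2 and pvalb1 against Gata5 morphants, and zgc:56231, pvalb1 and urahb against Gata6 morphants. The pvalb1 calls were lost without the second Gata5 library and without either Gata6 library.

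The bud libraries offer separate pools of the same genotypes. Of the 1289 genes called higher at 6-somites, 550 (42.7%) had both bud double morphant libraries above both bud WT libraries and 90 (6.98%) had both below, where 17.5% and 23.3% of all 14163 genes listed at both stages did. Of the 1608 called lower, 680 (42.3%) were below and 87 (5.41%) above at bud. acsl5 stood at 18.4 and 9.5 RPKM in WT and 1.59 and 1.62 RPKM in double morphants at bud, and soat1 at 3.35 and 3.64 RPKM in WT and 0.188 and 0.307 RPKM in double morphants, with no overlap for either gene. tbx20 was at 0.553 and 0.412 RPKM in WT and 0.0569 and 0.0412 RPKM in double morphants at bud, lower in both groups than at 6-somites.

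The effect of the double morphants itself differed between stages in 7 of 14163 genes (0.0494%), 2 with a higher (0.0141%) and 5 with a lower (0.0353%) change at 6-somites, and 8.86% of genes passed an unadjusted p under 0.05. fabp4a, a fatty acid binding protein of adipose and endothelial cells in mammals, stood at 0.145 and 0.164 RPKM in WT and 0.0755 and 0.219 RPKM in double morphants at bud, and at 0.364 and 0.338 RPKM in WT and 4.54 and 5.74 RPKM in double morphants at 6-somites. It was low in all groups but the double morphants at 6-somites, with 0.456 and 0.509 RPKM in Gata5 and 0.352 and 0.766 RPKM in Gata6 morphants. The change of its effect was 2.19 ± 0.21 (adjusted p = 0.00498). That call was lost with a pseudocount of 0.1 RPKM and with limma-voom on recovered reads (adjusted p up to 0.134). At 6-somites fabp4a had 7 reads on average in WT and 97 in double morphants. frzb, a secreted Wnt antagonist, went in WT from 13.3 and 17.5 RPKM at bud to 1.0 and 1.49 RPKM at 6-somites and in double morphants from 10.5 and 12.1 to 3.81 and 3.37 RPKM, with the double morphants the lower group at bud and the higher at 6-somites (change of effect 1.44 ± 0.21, adjusted p = 0.0421). slc2a3a, a glucose transporter, went in WT from 0.0458 and 0.0682 to 1.09 and 1.01 RPKM and in double morphants only from 0.00897 and 0.0617 to 0.107 and 0.109 RPKM (change of effect -0.86 ± 0.11, adjusted p = 0.0407). The calls of frzb, slc2a3a, zgc:194209 and si:ch211-251f6.6, the other genes named by the rule, were lost when any 1 of the 6-somites libraries of either group was left out, while that of fabp4a held through each of the 8 omissions of a library. The count of 7 was 49 without the second bud double morphant library, 10 without the second bud WT library and 1 to 3 without any other.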

How the data were processed

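PolyA RNA from pools of 40 embryos was sequenced as single 36-base reads, per the series design text and the labels. The authors deposited RPKM values per Ensembl gene identifier, per the file headers, on Zv9, per the submitters' processing notes, with no aligner or annotation release given in the sources used here. The spacing of the RPKM values gave whole reads for 27145 of 27257 identifiers (tolerance 0.01 reads), from which depth was taken. Library totals were 19.7 to 30.8 M reads over all 16 libraries. Symbols were matched to 18921 of 26496 identifiers at 6-somites, and 2729 share a symbol with another, so copies may share reads.

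Genes with at least 1 RPKM in 2 of the 8 6-somites libraries were tested on log2(RPKM + 1) with limma 3.58.1 in R 4.3.3 (trend option, 1 mean per group, 4 residual degrees of freedom, two-sided, Benjamini-Hochberg adjusted p under 0.05 over all genes tested). The stage contrast used all 16 libraries and 8 residual degrees of freedom. The method was tested on simulated data. An exact permutation test of 2 against 2 libraries cannot go below 0.333. Named were the 10 highest and 10 lowest called changes with a symbol and at least 50 reads on average in the higher group, gata5, tmem88a and tmem88b, up to 4 called members per list with the smallest p, and 3 each way for the other comparisons. Results of some genes are not reported here. Members and lists were chosen with earlier results of these data known. Alternatives were another pseudocount, other filters, median-of-ratios scaling, limma-voom on recovered reads, a replicate block, other sets of libraries and leaving out each library.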

Additional observations from a re-analysis of the deposited data

Results flagged for a closer look

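The double morphant effect differed between bud and 6-somites in 7 genes by a test of the difference itself (limma, adjusted p under 0.05). The change of the effect was 2.19 ± 0.21 for fabp4a and 1.44 ± 0.21 for frzb, both described above. It was -1.63 ± 0.23 for zgc:194209 (adjusted p = 0.0421), which stood at 0.96 and 1.55 RPKM in WT and 2.93 and 2.39 RPKM in double morphants at bud and at 2.9 and 3.12 RPKM in WT and 1.1 and 1.13 RPKM in double morphants at 6-somites, so the order of the groups turned. It was -0.98 ± 0.13 for si:ch211-251f6.6 (adjusted p = 0.0407), which stood at 1.06 and 1.18 RPKM in WT and 0.0751 and 0.0985 RPKM in double morphants at 6-somites and at 0.0877 and 0.0796 RPKM in WT and 0.0824 and 0.119 RPKM in double morphants at bud. It was -0.86 ± 0.11 for slc2a3a. The zgc:194209 call was lost in 6 of the 8 omissions of a library and in 11 of all 13 settings, and the si:ch211-251f6.6 call in 7 and 11 of these.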

How the results depend on the processing

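The count of genes called against WT was 2894 with a pseudocount of 0.1 RPKM, 2880 with no filter, 2842 with median-of-ratios scaling and 3282 with limma-voom. It was 1629 with a minimum of 5 RPKM, where fewer genes are tested, 1589 in a fit of the 4 libraries compared and 609 in a fit of all 16 libraries, where the spread within groups is larger at bud (SD of replicate differences 0.332 to 0.471, against 0.182 to 0.229 at 6-somites), and 1143 to 2151 with 1 library left out. Against Gata5 morphants it was 1603 with a minimum of 5 RPKM, 523 in the fit of all 16 libraries and 935 to 2135 with 1 library left out. Against Gata6 morphants it was 1069, 113 and 400 to 1136 in the same settings. The count of 7 genes whose effect changed between stages was 0 with a pseudocount of 0.1 RPKM (1099 at an unadjusted p under 0.05), 0 with a minimum of 5 RPKM (531 unadjusted), 1 with median-of-ratios scaling, 2 with limma-voom and 1 to 49 with 1 library left out. The cause of these moves was not tested. Deviations of same-numbered libraries correlated at 0.236 to 0.544 over 14167 genes, but 2 numbers a group do not establish pairs. With the replicate number as a block 4144 genes were called against WT, 4211 against Gata5 morphants, 2810 against Gata6 morphants and 3 for the stage contrast, of which fabp4a was the 1 shared with the 7. In the fit of all 16 libraries 4 of 21 heart field genes were lower, 9 of 28 yolk syncytial genes higher and 1 of 29 damage response genes higher. Of all 14163 genes in that fit, 335 were lower and 274 higher. Of 97 named results, 61 kept their call when any 1 library was left out, 34 kept it in every setting other than the 4-library fit, and 0 reversed. The 4 libraries held 27.4 to 30.8 M reads, and the share of depth in the spread was not tested.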

Other observations

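Gene families outside the lists, chosen after their values were seen, showed further differences between double morphants and WT at 6-somites. Over all genes tested 9.1% were higher and 11.4% lower, with a median change of -0.02. Of 24 collagens tested, 9 were lower and 1, col12a1, was higher, with a median change of -0.32. The lower members included col1a2 of fibrillar collagen, at 1.56 and 1.25 RPKM in WT and 0.551 and 0.699 RPKM in double morphants, and col4a1 of basement membrane, at 4.55 and 4.25 RPKM in WT and 2.08 and 3.0 RPKM in double morphants. Of 12 integrins, receptors for such matrix proteins, 6 were lower and 2 higher, with a median change of -0.29. itga5, a fibronectin receptor subunit, stood at 8.26 and 8.74 RPKM in WT and 5.99 and 6.18 RPKM in double morphants.

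Serpins, inhibitors of secreted proteases, included 9 called higher of 18 tested, with a median change of 0.37. Coagulation factors included 7 called higher of 10, with a median of 1.48, where 9.1% of all genes were called higher. Both families overlap the yolk syncytial list. The vitellogenin sums given above were also higher in double morphants than in WT, and a tie between them and these families was not tested. Of 182 solute carriers 40 were higher and 24 lower, with a median change of -0.01, beside 9.1% higher and 11.4% lower of all genes. fabp7, a fatty acid binding protein of neural tissue, was higher at 6.28 and 1.73 RPKM in double morphants against 0.602 and 0.838 RPKM in WT. Its double morphant libraries lay far apart, with the first the higher, as for the vitellogenins. fabp3 was lower, at 18.7 and 17.6 RPKM in double morphants against 29 and 23.3 RPKM in WT.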
